A study of Mus musculus with 12 samples.

Results

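The genes described are Cyp24a1, Vdr, S100g, Trpv6 and Atp2b1, 5 of the 32587 gene rows of an RNA sequencing experiment on mouse intestinal organoids, epithelial cultures that grow from intestinal stem cells. They were picked by gene symbol as genes of vitamin D action and calcium absorption. The choice was made with values of these data in view, and it rests on 1 stated pattern: Cyp24a1 near 0 in organoids given the solvent or cholic acid. The values of Cyp24a1 are therefore given as a description, with no test.

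There were 4 groups of 3 libraries each, all from wild-type organoids that the labels place in the duodenum. Organoids were treated with deoxycholic acid (DCA), chenodeoxycholic acid (CDCA), cholic acid (CA) or the solvent dimethyl sulfoxide (DMSO), and all were kept in IntestiCult organoid growth medium with penicillin-streptomycin. CDCA and DCA each lack a hydroxyl group that CA carries, on the C ring in CDCA and on the B ring in DCA. The labels give every acid at 50 mmol/L, a dose whose unit is in doubt because it is very high for bile acids. They give an exposure of 96 hours in the protocol but 2 days in the treatment field. For all groups they also give 2 days of culture before treatment. Whether replicate libraries stem from different cultures or mice is not labelled, and the p-values then capture the spread of these libraries alone, which may be technical.

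Vitamin D acts through the vitamin D receptor (Vdr), a nuclear receptor that pairs with a retinoid X receptor and binds DNA when the hormone calcitriol is present. In the duodenum this receptor drives the uptake of dietary calcium across enterocytes: the channel Trpv6 lets calcium in at the brush border, the small binding protein calbindin-D9k (S100g) carries it through the cell, and the calcium pump Atp2b1 pushes it out at the base. Cyp24a1 breaks down calcitriol and is itself a strongly induced target of the receptor, which makes it a feedback gene. The receptor also binds lithocholic acid, a bile acid that was not among those given here.

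Levels are in TPM, a share of all transcripts that corrects for transcript length, so they can be compared between genes. Library totals were 889156 to 936841 TPM, the sequencing depth is unknown, and no counting error can be given for a value. Of 4802 rows with a mean of at least 20 TPM, 4 had a listed 0 in some library, and a listed 0 is therefore not proof of absence. The duodenal transcription factors Pdx1 (8.16 to 11.2 TPM) and Gata4 (76.8 to 104.6 TPM) were present in every library, while the ileal bile acid importer Slc10a2 stayed at 0.412 to 0.822 TPM. Another ileal marker was the bile acid binding protein Fabp6, which bile acids are known to induce. Fabp6 was at 1100 to 1653 TPM in DCA, 164 to 755 TPM in CDCA and 138 to 306 TPM in CA, against 0.971 to 2.31 TPM in DMSO. It made up nearly all of the summed level of the 4 ileal markers under each acid. This was not so in DMSO, where they summed to 6.26 to 6.59 TPM. Summed markers of mesenchymal, immune and endothelial cells peaked at 6.07, 4.64 and 3.57 TPM, with the mesenchymal gene Dcn and the endothelial gene Cdh5 listed at 0 in all 12 libraries. CDCA replicate 3 stood apart from CDCA replicates 1 and 2 in several readouts below, and S100g differences that involve CDCA are also given without it.

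Promoter sequence was at hand for 4 of the 5 genes from RefSeq (GRCm38.p6, 250 bases up to the annotated start). It is shown for S100g and Trpv6, the calcium absorption genes with the highest and the lowest level of the 5, because their expression differed so widely. Capitals mark nuclear receptor hexamers, the building blocks of vitamin D response elements, searched on both strands. The first form searched was AGGTCA and the second AGTTCA. The other two began with another base and were GGGTCA as well as GGTTCA. No match overlapped another in these windows. The S100g window lies at chrX:162964600-162964849 and the Trpv6 window at chr6:41636406-41636655, both on the minus strand.
S100g: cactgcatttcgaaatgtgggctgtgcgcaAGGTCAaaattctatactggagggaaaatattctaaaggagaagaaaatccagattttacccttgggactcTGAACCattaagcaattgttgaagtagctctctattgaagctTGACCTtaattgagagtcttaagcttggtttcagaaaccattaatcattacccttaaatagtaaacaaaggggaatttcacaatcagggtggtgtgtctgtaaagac
Trpv6: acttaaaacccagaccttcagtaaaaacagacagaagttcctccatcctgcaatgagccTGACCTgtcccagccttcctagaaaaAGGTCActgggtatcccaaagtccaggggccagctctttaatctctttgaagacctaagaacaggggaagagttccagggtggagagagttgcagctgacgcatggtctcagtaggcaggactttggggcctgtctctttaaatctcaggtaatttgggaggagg
S100g held 3 hexamers, starting at positions -220, -149 and -107 from the annotated start, and Trpv6 held 2, starting at -191 and -165. Vdr held 1, TGAACT, at -91 to -86 (chr15:97908297-97908546, minus strand), and the pair of Atp2b1 windows held 0. At least 1 hexamer occurs in 38.6% of the 32851 promoter windows of that length, so its presence is common. The paired form DR3, with a pair of hexamers in the same direction and NNN between them, occurs in 0.0396% of windows, and the facing form IR1, with a single N between them, in 0.0304%. None of the 5 windows of these genes held either form, and nothing about the receptor's binding follows from that. The windows differed in base composition: GC content was 38.4% for S100g, 49.6% for Trpv6, 61.2% for Vdr and 78.4% and 80.8% for Atp2b1, against a median of 52.4% over all windows.

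Cyp24a1 RNA was present in every DCA and CDCA library and in 1 of the 6 others. It was at 5.83, 5.27 and 6.60 TPM in DCA replicates 1, 2 and 3, and at 5.59, 5.05 and 6.08 TPM in CDCA replicates 1, 2 and 3. It was listed at 0 in all 3 CA libraries. In DMSO it was listed at 0 in replicates 1 and 2 and was at 0.668 TPM in replicate 3. The DCA and CDCA ranges overlap each other and lie wholly above those of CA and DMSO. The mean difference in log2(TPM + 1) was 2.54 for DCA and 2.47 for CDCA against DMSO, 2.78 for DCA and 2.71 for CDCA against CA, and 0.068 for DCA against CDCA. These differences depend on the pseudocount, since a group at or near 0 is the base of all but the last. Even where present, Cyp24a1 was a low transcript, with means of 5.90 TPM in DCA and 5.57 TPM in CDCA.

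**Figure D1:**
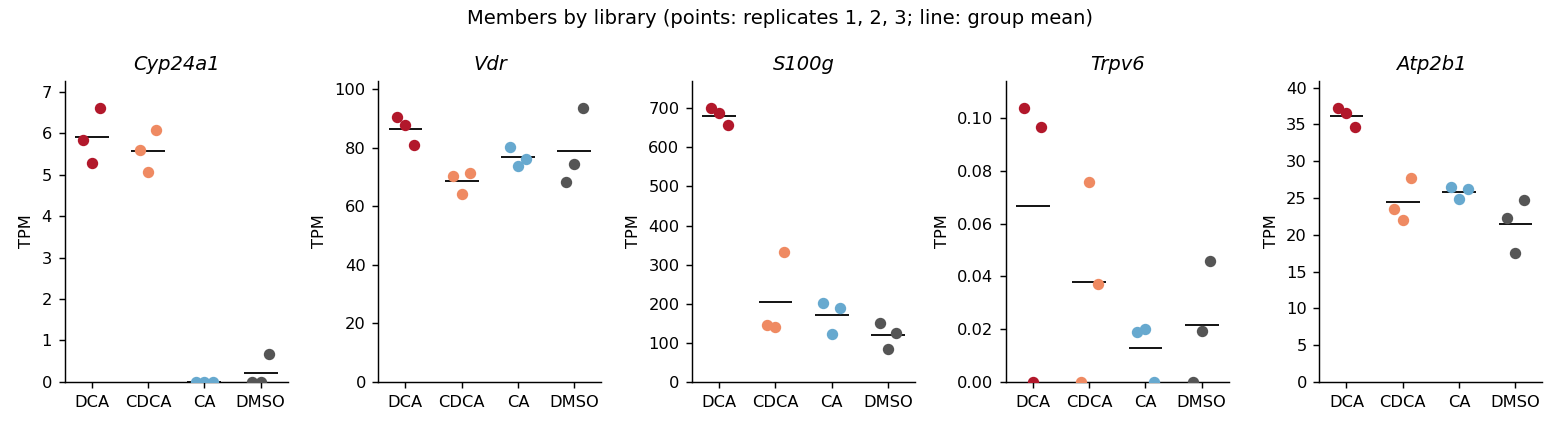
TPM of Cyp24a1, Vdr, S100g, Trpv6 and Atp2b1 (vertical axes, a separate scale in each panel) in the 12 libraries of DCA, CDCA, CA and DMSO organoids (horizontal axes); points are libraries and lines are group means. Cyp24a1 lies at 5.05 to 6.60 TPM in DCA and CDCA and at no more than 0.668 TPM elsewhere, while S100g is far above the rest in DCA alone and Trpv6 never passes 0.104 TPM.

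The receptor gene Vdr was well expressed in every library. It was at 90.7, 87.7 and 81.1 TPM in DCA, 70.3, 64.4 and 71.4 TPM in CDCA, 80.3, 73.9 and 76.2 TPM in CA, and 68.2, 74.6 and 93.5 TPM in DMSO. The order of the means was DCA, DMSO, CA and CDCA, and the DMSO range spans those of DCA and CA. The log2 difference from DMSO was 0.14 for DCA (95% confidence interval, CI, -0.081 to 0.37), -0.18 for CDCA (CI -0.41 to 0.041) and -0.025 for CA (CI -0.25 to 0.20). Adjusted over all tested rows, the limma p was 0.296 for DCA, 0.658 for CDCA and 0.938 for CA. Without DMSO replicate 3, the highest of all libraries, DCA was 0.27 above DMSO and passed (limma adjusted p = 0.0222). Between the acids, Vdr was 0.33 higher in DCA than in CDCA (CI 0.10 to 0.55, limma adjusted p = 0.0325), and these groups do not overlap. Leaving out CDCA replicate 1, CDCA replicate 2, DCA replicate 1 or DCA replicate 2 ended that call, with limma adjusted p of up to 0.122. Adjusting jointly over the 3 acid pairs ended it as well (limma adjusted p = 0.0576), while the S100g and Atp2b1 calls between acids below held.

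S100g had the highest level of the 5 genes in every library and rose under DCA. It was at 699.8, 687 and 657 TPM in DCA replicates 1, 2 and 3. It was at 145, 139.8 and 333 TPM in CDCA, 201, 124 and 188 TPM in CA, and 149, 84.5 and 125 TPM in DMSO. Every DCA library was above every other library, and the CDCA, CA and DMSO ranges overlap. The log2 difference of DCA was 2.54 from DMSO (CI 1.82 to 3.26, limma adjusted p = 0.000278). DCA was also above CA by 2.02 (CI 1.30 to 2.74, limma adjusted p = 0.00535) and above CDCA by 1.84 (CI 1.12 to 2.57, limma adjusted p = 0.00297), and by 2.25 without CDCA replicate 3 (limma adjusted p = 0.000104). S100g in CDCA differed from DMSO by 0.69 (CI -0.029 to 1.41, limma adjusted p = 0.539), and by 0.29 without CDCA replicate 3. In CA it differed from DMSO by 0.52 (CI -0.20 to 1.24, limma adjusted p = 0.497), and CDCA differed from CA by 0.17 (CI -0.55 to 0.89, limma adjusted p = 0.949), a difference that turned to -0.23 without CDCA replicate 3 and to -0.044 without CA replicate 2. These intervals reach up to 1.41, 1.24 and 0.89 log2 units, so they leave room for rises of that size.

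Atp2b1, the basolateral calcium pump, rose under DCA by a smaller amount. It was at 37.2, 36.6 and 34.7 TPM in DCA, 23.5, 21.97 and 27.8 TPM in CDCA, 26.5, 24.8 and 26.2 TPM in CA, and 22.3, 17.5 and 24.7 TPM in DMSO. The 3 DCA libraries lie above all others, and the lowest CA library is above the highest DMSO library by less than 1 TPM. The log2 difference of DCA was 0.73 from DMSO (CI 0.48 to 0.99, limma adjusted p = 0.000547), 0.47 from CA (CI 0.21 to 0.73, limma adjusted p = 0.0227) and 0.55 from CDCA (CI 0.29 to 0.81, limma adjusted p = 0.00512). The difference from CA lost its call without CA replicate 2 or 3 and without DCA replicate 1 or 2 (limma adjusted p up to 0.0873). Atp2b1 in CA differed from DMSO by 0.27 (CI 0.0084 to 0.52, limma adjusted p = 0.329) and in CDCA by 0.18 (CI -0.076 to 0.44, limma adjusted p = 0.729). CDCA differed from CA by -0.084 (CI -0.34 to 0.17, limma adjusted p = 0.931).

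Trpv6, the apical entry channel, was close to absent. Its highest values were 0.104 and 0.0966 TPM, in DCA replicates 1 and 3, and it was listed at 0 in DCA replicate 2. The CDCA libraries held 0 to 0.0759 TPM, the CA libraries 0 to 0.0202 TPM and the DMSO libraries 0 to 0.0457 TPM. All groups overlap, and it did not reach the 1 TPM in at least 3 libraries needed for testing. Its close relative Trpv5, which serves the same role in kidney, was listed at 0 in all 12 libraries. RNA of the carrier and of the exit pump was thus abundant or moderate, and RNA of the dedicated entry channels was at or near 0.

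Of the 5 genes, 4 passed the filter and 3 of these were tested. Under DCA against DMSO 2 of the 3 were higher, where 38% of all 11952 rows tested passed in either direction and 18.8% passed as higher. The count was 2 of 3 for DCA against CA, all higher, where 14.7% of all rows passed and 5.79% as higher. It was 3 of 3 for DCA against CDCA, all higher, where 27.8% passed and 12.8% as higher. It was 0 of 3 for CDCA and for CA against DMSO, where 0.594% and 0.577% passed, and 0 of 3 for CDCA against CA, where 0.0335% did, all by limma. At an unadjusted p under 0.05 these last counts were 0, 1 and 0, where 1168, 1763 and 861 of all 11952 rows were. The comparisons with DMSO share its 3 libraries and are not independent of each other.

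**Figure D2:**
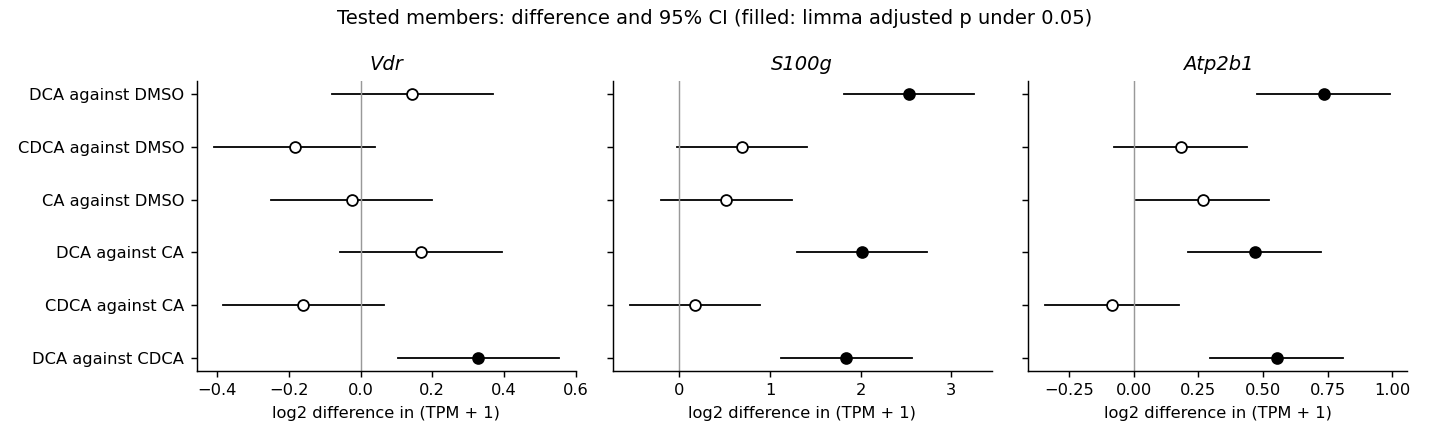
Log2 differences in (TPM + 1) of Vdr, S100g and Atp2b1 (horizontal axes, a separate scale in each panel) for the 6 comparisons between groups of 3 libraries (rows); bars are 95% CI from limma and filled points have an adjusted p under 0.05. S100g and Atp2b1 are filled in the 3 comparisons that have DCA first, at 1.84 to 2.54 and 0.47 to 0.73, and Vdr in DCA against CDCA alone.

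Markers of several cell types moved with DCA too. The 10 enterocyte markers (Alpi, Fabp1, Fabp2, Apoa1, Apoa4, Krt20, Lct, Sis, Vil1 and Mttp), 10 of which passed the filter, summed to 5055 to 6910 TPM in DCA, 1649 to 2654 TPM in CDCA, 2550.2 to 4033 TPM in CA and 1487 to 2516 TPM in DMSO. In these bulk libraries more enterocytes and more RNA per enterocyte cannot be told apart. The 5 stem cell markers summed to 93.8 to 109.7 TPM in DCA and 352 to 785 TPM in DMSO, and the 5 proliferation markers to 146 to 162 TPM in DCA and 281 to 365 TPM in DMSO. The 5 Paneth cell markers summed to 2752 to 3152 TPM in DCA and 3772 to 6539 TPM in DMSO, and the 6 enteroendocrine markers to 1470 to 1674 TPM in DCA and 2361 to 3014 TPM in DMSO. None of these sums overlaps between DCA and DMSO, a comparison in which 38% of all tested rows were called. The 5 tuft cell markers, all low, did not overlap either, at 4.20 to 6.93 TPM in DCA and 9.06 to 14.2 TPM in DMSO. The 5 goblet cell markers do overlap, at 3384 to 3768 TPM in DCA and 3707 to 4940 TPM in DMSO. Sums below DMSO without overlap were not limited to DCA. They were seen for enteroendocrine markers in CDCA (1891 to 2102 TPM). In CA they were seen for stem cell (241 to 350.5 TPM) and proliferation markers (262 to 273 TPM). The other CDCA and CA sums of these non-enterocyte lists overlap DMSO. The part of stem, proliferating, Paneth, enteroendocrine and tuft cells in the DCA differences of any gene here was not tested. For enterocytes only levels relative to their markers were compared. The mean log2(TPM + 1) of the enterocyte markers was 1.46 above DMSO in DCA, 0.71 above it in CA and differed from it by -0.027 in CDCA. S100g exceeded the marker mean of its own library by 1.20 to 1.53 log2 units in DCA and 0.79 to 1.24 in CDCA, against -0.022 to 0.23 in CA and 0.18 to 0.42 in DMSO. On this relative scale, chosen after seeing the data, S100g was 1.08 higher in DCA and 0.72 higher in CDCA than in DMSO, with no overlap in either case. Without CDCA replicate 3 the CDCA value was 0.59, also with no overlap. The exact two-sided permutation p was 0.1 for each with all libraries, the smallest that 3 against 3 libraries allow, and 0.2 adjusted over 18 such tests. Between DCA and CDCA the S100g difference on this scale was 0.36, with overlap (exact permutation p = 0.2), against 1.84 before subtraction. Without CDCA replicate 3 that difference was 0.49 with no overlap, at 1.20 to 1.53 in DCA and 0.79 to 0.92 in CDCA. Atp2b1 on this scale was 0.72 lower in DCA than in DMSO (exact permutation p = 0.1), so it rose less than the markers did.

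Cyp24a1 is set beside the same markers as a description only, since its low level in CA and DMSO is what it was chosen for. The DCA libraries held 5.27 to 6.60 TPM of Cyp24a1 with enterocyte marker sums of 5055 to 6910 TPM, and the CDCA libraries held 5.05 to 6.08 TPM with sums of 1649 to 2654 TPM. Within CDCA, replicate 3 had the highest marker sum and 333 TPM of S100g against 145 and 139.8 TPM in replicates 1 and 2, while its Cyp24a1 was 6.08 against 5.59 and 5.05 TPM.

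**Figure D3:**
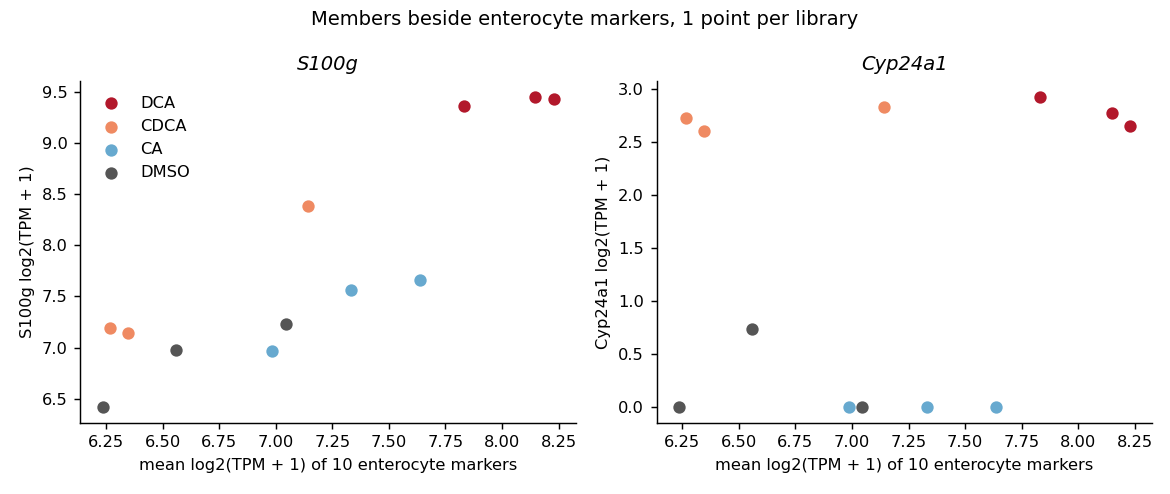
Log2(TPM + 1) of S100g (left) and Cyp24a1 (right) against the mean log2(TPM + 1) of 10 enterocyte markers, with 1 point per library colored by group. S100g is highest in the DCA libraries, which also have the highest marker means, at 7.83 to 8.23. Cyp24a1 is high in DCA and in CDCA, whose marker means are 6.27 to 7.14, and low in CA, at marker means of 6.99 to 7.64, and in DMSO, at 6.24 to 7.04.

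Across the 12 libraries, the rows most like each gene were ranked by the root mean square (RMS) difference of centred log2(TPM + 1) values, over 10967 candidate rows, as a description. The closest to S100g was Slc30a10, a manganese exporter that is itself a reported vitamin D target in intestine, at an RMS difference of 0.246 log2 units, where S100g varied by an RMS of 1.03 around its own mean. Next came Cyp3a25, Gda, H2-Q2 and Bco2, at 0.320 to 0.348. No candidate lay close to Cyp24a1: the nearest, Scd1, Dcdc2b, Fgf15, Niban1 and Rin1, were at 0.874 to 0.963, where Cyp24a1 itself varied by 1.33. Candidates needed a mean log2(TPM + 1) of at least 1, so lower rows with a like pattern were not searched. Niban1, a stress-responsive gene, was at 13.5 to 16.2 TPM in DCA and 13.4 to 14.5 TPM in CDCA, against 8.35 to 8.78 TPM in CA and 2.39 to 5.25 TPM in DMSO. Unlike Cyp24a1 it was well above 0 in CA. In the order DCA, CDCA, CA and DMSO, the means of the nearer Scd1 were 432, 186, 145 and 84.5 TPM. Those of Dcdc2b were 4.04, 3.39, 1.27 and 1.52 TPM, and those of Fgf15 were 27.2, 21.0, 9.63 and 1.84 TPM. Glrx, a glutaredoxin, was closest to Atp2b1 (0.0524, where Atp2b1 varied by 0.298) and Llgl2, a cell polarity gene, to Vdr (0.0614, where Vdr varied by 0.159). Trpv6, at the floor of detection, had flat rows such as Cfl2 as its neighbours.

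Other genes of the pathway were taken from 11 lists with 90 distinct genes, 63 of which were tested. Under DCA against DMSO 18 were higher and 10 lower, 44.4% of those tested beside 38% of all rows. The median log2 difference was 0.031 over these genes and -0.021 over all rows. Of the 28 called, 16 kept their call in every alternative limma fit, and each gene named below as having passed against DMSO is among these unless said otherwise. Both the 18 and the 16 include Trpm6, a magnesium channel that met the filter only through DCA, so its call is no support for a rise. Against DMSO, 0 of the 63 passed for CDCA and 0 for CA (limma), where 0.594% and 0.577% of all rows passed. At an unadjusted p under 0.05 the counts were 3 and 9, where 1168 and 1763 of all 11952 rows tested were. Leaving out CDCA replicate 3 made the CA count 4. Leaving out DMSO replicate 1 made it 3 and made the CDCA count 1. With both libraries left out the CA count was 8. Calls over all rows moved too. For CA against DMSO they were 69 as reported, 2 to 262 with single libraries left out and 26 to 964 in the other alternatives. For CDCA against DMSO they were 71 as reported and 40 to 85 with single libraries left out. For DCA against DMSO the count of these pathway genes was 18 without DCA replicate 2. Calls over all rows there were 3421 to 4890 with single libraries left out, beside 4545 as reported.

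**Figure D4:**
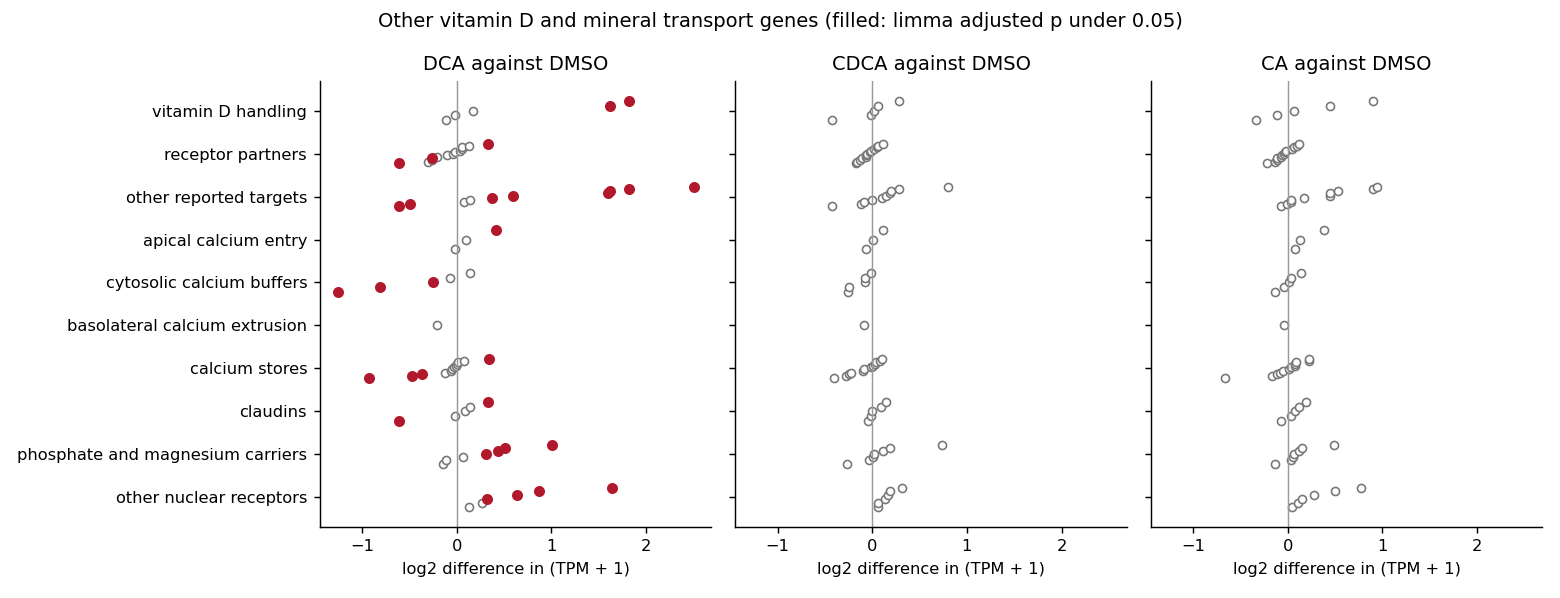
Log2 differences from DMSO in (TPM + 1) (horizontal axes) of the tested genes of 10 lists (rows) in DCA, CDCA and CA organoids (panels), 1 point per gene, filled where the limma adjusted p is under 0.05. Filled points are seen with DCA alone, 18 higher and 10 lower over all lists with shared genes counted once. The higher points include Trpm6, which met the filter only through DCA.

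Reported intestinal targets of the vitamin D receptor, apart from the 5 genes, rose in 6 and fell in 2 of 10 tested cases under DCA against DMSO, with a median of 0.48, where 38% of all rows were called, 18.8% as higher. Of these 8 calls, those of Abcb1a and Cd14 were lost in some alternative fits. Slc30a10 was at 48.1, 46.5 and 41.8 TPM in DCA, 10.7, 11.3 and 18.9 TPM in CDCA, 15.7, 13.1 and 15.5 TPM in CA, and 10.04, 5.37 and 6.80 TPM in DMSO. Each DCA library held more than 2 times as much as any other library. Its log2 difference from DMSO was 2.50 in DCA (CI 2.05 to 2.96, limma adjusted p = 1.81e-05), 0.80 in CDCA (limma adjusted p = 0.149) and 0.94 in CA (limma adjusted p = 0.0654). The CA value passed without DMSO replicate 1 (1.16, limma adjusted p = 0.0178) and without CDCA replicate 3 (limma adjusted p = 0.0151), and the CDCA value without DMSO replicate 1 (1.01, limma adjusted p = 0.0417).

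Slc37a2, a sugar phosphate carrier of the endoplasmic reticulum, rose by 1.60 under DCA against DMSO. Cyp3a11 and Cyp3a13, cytochromes P450 that oxidise steroids, bile acids and drugs, rose by 1.82 and 1.62, and Cdkn1a, a cell cycle inhibitor, by 0.59 (limma adjusted p for the 4 genes 4.78e-05, 0.00323, 0.00259 and 0.000585). The values of the Cyp3a genes are uncertain because near-identical copies share reads. Cldn2, which forms a paracellular pore for cations including calcium, fell by 0.61 (CI -0.89 to -0.33, limma adjusted p = 0.00266). It was at 91.5 to 95.6 TPM in DCA and 131 to 169 TPM in DMSO. Of 5 tested claudins (Cldn2, Cldn3, Cldn7, Cldn12 and Cldn15), 1 rose and 1 fell, 40% called beside 38% of all rows. The rise was of Cldn15, by 0.33 (limma adjusted p = 0.0203), a call lost in some alternative fits.

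Enzymes that make active vitamin D were scarce. Cyp27b1, which makes calcitriol, was at no more than 0.597 TPM in any library and was not tested. Cyp2r1 and Cyp27a1, which carry out the preceding step, were at 0.486 to 1.49 and 1.02 to 2.95 TPM, and neither passed in any comparison. Among 13 tested partners and coregulators of the receptor, 1 rose and 2 fell under DCA against DMSO, 23.1% called beside 38% of all rows. Rxra, a retinoid X receptor, averaged 25.6 ± 1.15 TPM in DCA against 20.2 ± 0.505 TPM in DMSO libraries (SD, n = 3), a rise of 0.33 (limma adjusted p = 0.0184) that lost its call without DCA replicate 1 or 2 or DMSO replicate 2 and with mitochondrial rows left out. Baz1b, a chromatin remodelling factor that binds the receptor, fell by 0.61 (limma adjusted p = 0.00598).

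Of 3 tested genes tied to apical calcium entry, 1 rose under DCA against DMSO, 33.3% called beside 38% of all rows. This was Anxa2, an annexin that binds the Trpv6 channel in a complex with S100a10, which rose by 0.41 (limma adjusted p = 0.00243). Of 5 tested cytosolic buffers, 3 fell under DCA against DMSO, where 38% of all rows were called in either direction. The calls of Calm2 and S100a6 were lost with some libraries left out. The call of S100a11 was kept: it averaged 155 ± 10.4 TPM in DCA against 379 ± 85.9 TPM in DMSO libraries (SD, n = 3). Its log2 difference was -1.26 (limma adjusted p = 0.000223). S100g thus rose while this other small S100 calcium-binding protein fell. Calbindin-D28k (Calb1) did not pass 0.142 TPM. Of 7 other extrusion genes 1 passed the filter, Slc8b1, and it was not called, while Atp2b4 and Slc8a1 peaked at 0.274 and 0.334 TPM. Of 12 tested genes of the calcium stores, 1 rose and 3 fell, 33.3% called beside 38% of all rows. The rise, of Orai3, and the fall of Atp2c1 were lost in some alternative fits. The other two calls were falls of the store pumps Atp2a3 by 0.47 and Atp2c2 by 0.92 (limma adjusted p = 0.00457 and 0.00317). The calcium-sensing receptor Casr was at no more than 0.159 TPM.

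Other nuclear receptors that bind bile acids or share response elements with Vdr rose in 4 of 6 tested cases under DCA against DMSO, where 38% of all rows were called, 18.8% as higher. The call of Nr1h2 was lost in some alternative fits. Nr1i3, the constitutive androstane receptor, was at 65.5, 60.9 and 55.8 TPM in DCA, 18.4, 19.8 and 35.9 TPM in CDCA, 36.3, 27.6 and 35.6 TPM in CA, and 20.1, 18.9 and 17.4 TPM in DMSO. It rose by 1.64 in DCA against DMSO, the pregnane X receptor Nr1i2 by 0.64 and the bile acid receptor Nr1h4 by 0.87 (limma adjusted p = 0.000114, 0.000502 and 0.00727). Vdr itself differed by 0.14 in the same comparison and did not pass.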

How the data were processed

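Each library's deposited table pairs gene symbols with values taken here as TPM, a unit read off the values themselves: fractional, and close to the TPM total in sum. Per the submitters' processing notes, Salmon 1.8.0 and genome build GRCm39 were used. Annotation, strand setting and gene summing: not given in the sources used here. Per the labels' protocols, poly(A) RNA was made into dUTP-marked libraries. TPM keeps no depth, and as a share of a total it moves with abundant transcripts: mitochondrial RNA was 11.8 ± 0.814% of TPM in DCA and 17.2 ± 2.74% in DMSO (SD, n = 3).

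Values were analysed as log2(TPM + 1), which understates changes of low genes. Rows reaching 1 TPM in 3 or more libraries (11952) were fitted with limma 3.58.1 in R 4.3.3 (4 group means, 12 libraries, trend and robust moderation, two-sided, Benjamini-Hochberg within each of 6 comparisons, threshold 0.05). The fit was tested on simulated data. Groups came from the sample titles. The 5 genes and all lists were chosen with earlier results of these data known. The rule for naming took the 5 genes, list members past the threshold in any comparison, Rxra and genes of high level, up to 4 a list, and the 5 closest rows of each gene, among rows with a mean log2(TPM + 1) of at least 1, without predicted genes. Of the called list members, mainly those that kept their call in every alternative fit are named, and low genes are named for their level, both chosen after their values were seen. Motifs were searched in RefSeq windows of GRCm38.p6. Alternatives were a pseudocount of 0.1, no filter, scaling by median ratios, a replicate block, a fit of the 6 libraries compared, no trend or robust moderation, 15 mitochondrial and rRNA rows left out, each library left out, and 2 libraries (CDCA replicate 3 with DMSO replicate 1) omitted together. Levels relative to enterocyte markers, also without CDCA replicate 3, were added after seeing the data.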

Additional observations from a re-analysis of the deposited data

How the results depend on the processing

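The counts of tested genes called kept within 1.5 times of the values reported in all alternatives for 5 of the 6 comparisons. For DCA against CA the count was 1 to 2 with single libraries left out, Atp2b1 being the gene lost each time. S100g kept its calls and direction in every alternative limma fit of the 3 comparisons with DCA first. Vdr in DCA against CDCA also missed the threshold with no filter (limma adjusted p = 0.0587), and Vdr in DCA against CA passed with median-ratio scaling (0.23, limma adjusted p = 0.0353). Same-numbered libraries did not deviate together (correlations of deviations -0.378 to 0.109), so the numbers are not taken as pairs. With the replicate number as a block, Vdr in DCA against CDCA kept its difference of 0.33 at limma adjusted p = 0.0505, and counts of tested genes called were 2, 0, 0, 2, 0 and 2 in the order DCA, CDCA and CA against DMSO, DCA and CDCA against CA, and DCA against CDCA.

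Relative to enterocyte markers, directions turned for Vdr in DCA against CDCA (-1.16) and for Atp2b1 in DCA against DMSO (-0.72), CA (-0.28) and CDCA (-0.93). Differences that had not passed also changed sign: Vdr in DCA against DMSO (-1.31), DCA against CA (-0.58) and CDCA against CA (0.57), S100g in CA against DMSO (-0.19), Atp2b1 in CA against DMSO (-0.44) and CDCA against CA (0.65), and the untested Cyp24a1 difference of DCA against CDCA (-1.42). This follows from the subtraction of the marker differences. With a pseudocount of 0.1, Cyp24a1 was 4.92 above DMSO in DCA and 4.84 in CDCA, against 2.54 and 2.47 with a pseudocount of 1.

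Calls over all rows moved more. For CA against DMSO they were 69 in the reported fit and 2 to 964 in the alternatives, for CDCA against DMSO 71 and 22 to 86, for CDCA against CA 4 and 2 to 439, for DCA against CA 1761 and 573 to 3414, and for DCA against CDCA 3322 and 2022 to 4646. Leaving out mitochondrial and rRNA rows shifted the median of all rows by -0.13 for DCA against DMSO, where 1726 rows were then higher and 4116 lower, against 2245 and 2300 as reported. The same step gave 653 higher and 2072 lower for DCA against CA (692 and 1069 as reported, 1275 and 1257 with median-ratio scaling) and 1315 and 3331 for DCA against CDCA (1532 and 1790 as reported). For CDCA against DMSO it gave 63 and 22, and median-ratio scaling 60 and 26 (61 and 10 as reported), and for CA against DMSO it gave 40 and 6 (68 and 1 as reported). The cause of these moves was not tested. Depth is unknown, which limits low values such as those of Trpv6 and Cyp24a1.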

Other observations

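Phosphate and magnesium carriers, absorbed minerals that vitamin D also bears on, were not part of the calcium route described above. Of 7 tested carriers, 4 rose under DCA against DMSO, with a median log2 difference of 0.31, where 38% of all rows were called, 18.8% as higher. The calls of Slc20a1 and Xpr1 were lost in some alternative fits. By limma 0 passed for CDCA (1 at an unadjusted p under 0.05) or CA (0) against DMSO. Of all 11952 rows tested, 0.594% passed for CDCA and 0.577% for CA, and 1168 and 1763 were under that unadjusted p. Trpm6, the apical magnesium channel, was at 1.91, 1.14 and 1.27 TPM in DCA, 0.514, 0.740 and 2.06 TPM in CDCA, 0.685, 0.446 and 0.949 TPM in CA, and 0.197, 0.177 and 0.234 TPM in DMSO. The log2 difference of Trpm6 in DCA against DMSO was 1.01. Trpm6 reached 1 TPM only in the DCA libraries and in CDCA replicate 3. It met the filter of 1 TPM in at least 3 libraries only through DCA. Its test against DMSO is therefore not independent of the rise, and its call, counted among the 4, is no support for it. Every library of the 3 acids was above every DMSO library, although all are low transcripts. The sodium-dependent phosphate carrier Slc34a2, a reported vitamin D target, was at no more than 0.752 TPM in any library and was not tested.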
